A study of Homo sapiens with 8 samples.

Results

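The nuclear-encoded oxidative phosphorylation genes were compared between side population (SP) and non-side population (NSP) cells of J82, a cell line from a human bladder carcinoma. Members were taken by symbol from the protein-coding genes of the count table: all symbols starting with NDUFA, NDUFB, NDUFC, NDUFS, NDUFV, UQCR, ATP5 or COX followed by 4 to 8, together with SDHA, SDHB, SDHC, SDHD and CYC1, and without the NDUFAF assembly factors. This gave 91 genes among the 57820 of the table, 40 under complex I, 4 under complex II, 10 under complex III, 17 under complex IV and 20 under complex V. J82 cells grown in DMEM with serum were sorted by flow cytometry into SP and NSP cells, with no treatment in either group. SP cells are those that pump a DNA dye out through ABC transporters. RNA-seq libraries were made from 4 SP and 4 NSP samples, and the same replicate numbers 1 to 4 were given in both groups. The labels do not say whether the numbered samples came from separate cultures, and all come from 1 cell line. The p-values below set differences against the spread between these samples, which may be technical, with each gene's variance partly shared over genes.

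Oxidative phosphorylation makes most of the ATP of a respiring cell in the inner mitochondrial membrane. Complexes I and II take electrons from NADH and succinate, complex III passes them to cytochrome c, complex IV passes them to oxygen, and the proton gradient built by complexes I, III and IV drives ATP synthesis by complex V. Most subunits are encoded in the nucleus and imported, and a small set is encoded by mitochondrial DNA. The nuclear promoters of these subunits are known for sites of the factors NRF1, GABPA (an ETS factor), YY1 and SP1.

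The promoters shown here are those of the members that a test below called higher in SP and that could be printed. They were taken from RefSeq on GRCh38.p14, where 71 of the 91 members had an entry. Each sequence is the 150 bases before the annotated start, 5′ to 3′ on the gene's strand, with capitals on the motifs searched on both strands. These were GCATGCGC for NRF1, AAGATGGC for YY1 and TGACGTCA for the cAMP response element (CRE). The ETS motif was searched as CCGGAAG in all windows. For SP1 the letters were GGGCGG on either strand, and the last motif was the CCAAT box itself. NDUFA1 is read at chrX:119871682-119871831 on the plus strand, SDHB at chr1:17054033-17054182 on the minus strand, COX5B at chr2:97645912-97646061 on the plus strand and ATP5IF1 at chr1:28235974-28236123 on the plus strand.
NDUFA1: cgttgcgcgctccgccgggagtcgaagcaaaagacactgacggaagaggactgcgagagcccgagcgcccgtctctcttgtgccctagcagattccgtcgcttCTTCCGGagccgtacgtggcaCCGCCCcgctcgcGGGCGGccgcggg
SDHB: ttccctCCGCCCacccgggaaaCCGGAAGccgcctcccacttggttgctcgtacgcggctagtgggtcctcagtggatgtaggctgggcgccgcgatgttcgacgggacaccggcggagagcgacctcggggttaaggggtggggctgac
COX5B: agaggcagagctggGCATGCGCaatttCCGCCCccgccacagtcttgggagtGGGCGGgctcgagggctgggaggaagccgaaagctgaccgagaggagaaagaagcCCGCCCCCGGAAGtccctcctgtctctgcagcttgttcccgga
ATP5IF1: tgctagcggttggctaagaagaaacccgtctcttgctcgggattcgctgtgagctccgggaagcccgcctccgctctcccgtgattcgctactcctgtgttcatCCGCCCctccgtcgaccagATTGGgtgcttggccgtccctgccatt

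In these windows NDUFA1, SDHB and COX5B each held the ETS letters, starting 47, 128 and 37 bases before the start, and COX5B also held the NRF1 letters at 136 bases. In COX5B the SP1 letters at 43 bases and the ETS letters at 37 bases are adjacent and do not overlap. Over the whole 300 base entries (250 before the start and 50 after it), the NRF1 letters were found in 13 of 71 members (18.3%) against 3.27% of all 27305 promoters of the table. The ETS letters were found in 20 members (28.2% against 10.7%), the YY1 letters in 11 (15.5% against 3.03%) and the CRE letters in 5 (7.04% against 1.98%). The SP1 letters stood in 43 members (60.6% against 44.6%) and the CCAAT letters in 25 (35.2% against 35.7%). The 27305 promoters were not limited to protein-coding or tested genes and were not matched for base content, so these shares do not single out oxidative phosphorylation genes. These matches describe the letters of the windows and not bound sites.

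The counts need a word on strand before they are read. The library kit and the aligner are named in the study's methods, but the strand setting of the counting is not. MT-ND6, the only protein-coding gene on the light strand of mitochondrial DNA, had 612556 counts per kb, while the other 12 mitochondrially encoded subunits had 2844 to 15142. In 595 pairs of a long noncoding RNA (lncRNA) and a protein-coding gene on opposite strands, with 100 or more counts and at least 50% of the lncRNA exons inside those of the gene, the lncRNA was counted more often than the gene in 452 (76.0%). Of the 91 members, 29 had exonic sequence that overlaps exons of 1 or more opposite-strand genes, and 18 of these 29 overlapped one with more counts than the member. NDUFS7 had 604 counts over the 8 libraries, and the lncRNA ENSG00000248015 across its exons had 6507. ATP5PD had 264 counts against 5603 for KCTD2, ATP5MG had 150 against 4075 for ENSG00000254873, and NDUFB8 had 2 against 1687 for HIF1AN. Counts of a member from its own mRNA and counts from reads of the other strand therefore cannot be told apart, and the values below are counts assigned to each gene, not levels of its mRNA.

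**Figure D1:**
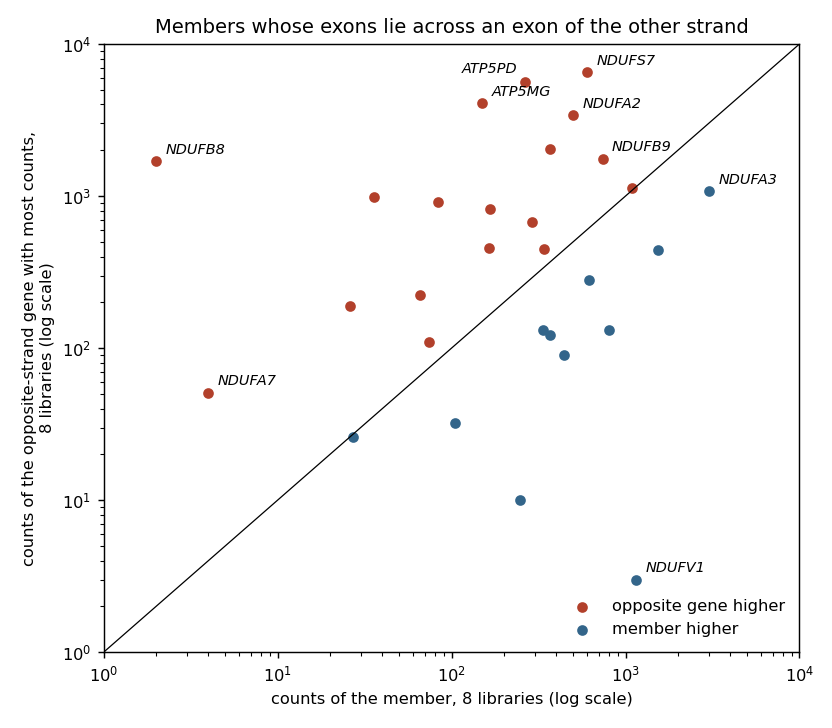
Counts summed over the 8 libraries for the 29 members that overlap exons of an opposite-strand gene (x axis, log scale) against the counts of that gene (y axis, log scale), 1 point per member, using the gene with the most counts where a member overlaps several (6 members). In 18 members the point lies above the line of equal counts, with NDUFB8 at 2 against 1687 and NDUFS7 at 604 against 6507.

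The counts behind each member were few. The study's methods give a far larger number of raw reads per library than was counted on genes here, and what became of the other reads is not given in the sources used here. The libraries held 1431823 to 2073526 counts, 13260182 in all, and 40410 of these were on the 91 members. A filter on low counts kept 65 members, with a median of 343 counts over the 8 libraries, and left out 26, of which the highest had 91. In 6 members (ATP5MGL, COX4I2, COX6A2, COX7B2, COX8C and NDUFC2-KCTD14) no read was counted, which allows up to 3 counts in the total, or 0.231 CPM (the count scaled to the normalized library size). Members left out of the test include subunits that every respiring cell needs, such as NDUFV2 with 15 counts and SDHD with 8. Copies of members complicate a few counts: UQCRHL is a near copy of UQCRH, and ATP5MF-PTCD1 and NDUFC2-KCTD14 are read-through genes that share exons with ATP5MF and NDUFC2, so that their values are uncertain. The 172 pseudogenes found by the same symbol starts, processed or unprocessed, held 727 counts, 1.8% of those on the members. Pseudogenes of the SDH genes and CYC1 were not part of this search.

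To ask whether oxidative phosphorylation genes differ between SP and NSP cells, each gene was fitted with edgeR's quasi-likelihood test and called at a Benjamini-Hochberg adjusted p under 0.05 over all 9309 tested genes and a fold change over 1.3. No member was called in either direction. Of all tested genes, 1.63% were called higher and 2.03% lower in SP. In bulk samples, a difference in a share of the cells and a difference in all cells cannot be told apart. The smallest adjusted p of a member was 0.0777, for ATP5F1B. An unadjusted p under 0.05 was found for 15 members higher in SP and 0 lower, against 8.13% and 8.27% of all tested genes. DESeq2 called 1 of the 65 members higher, ATP5F1B (adjusted p = 0.0391), beside 145 of the 9309 tested genes. limma voom called no member, beside 177 of the 9309 genes higher.

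Same-numbered SP and NSP libraries deviated together, so the replicate number was also fitted as a block. The SE of this fit was 0.13 for ATP5F1B, VIM, KRT7 and MT-ND4 alike. Without the block it was 0.15, 0.23, 0.22 and 0.32. The blocked p-values thus rest on a variance shared over genes and do not measure the spread of a single gene between pairs. With the replicate block, 6 of the 65 members (9.23%) were called higher in SP against 5.89% of all tested genes, and 0 were called lower against 7.00%. The 6 were NDUFA1 and NDUFB9 of complex I, SDHB of complex II, COX5B of complex IV, and ATP5F1B and ATP5IF1 of complex V. This count depended on the libraries numbered 4: with both left out, the blocked fit called 1 member, ATP5IF1 (1.52%), against 3.81% of all genes. With the libraries numbered 1 left out it called 4 members (6.15%) against 3.64% of all genes, with those numbered 2 left out 3 (4.62%) against 3.81%, and with those numbered 3 left out 7 (10.6%) against 6.45%. ATP5IF1 was the only member called in all 4 of these fits.

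Most members leaned the same way without passing the test. The fitted log2 fold change was above 0 in 53 of 65 members (81.5%) against 51.8% of all tested genes. All members are protein-coding, and of the 7369 tested protein-coding genes 55.4% were above 0, with a median of 0.05. The median of the members was 0.29, a 1.23-fold higher count in SP, against 0.01 over all tested genes, and single members ran from -0.58 for ATP5MC1 to 0.78 for NDUFA4. The groups did not overlap in 10 members, all with SP above NSP, and 0 with SP below it, against 4.78% and 4.97% of all tested genes. The 10 were NDUFB7, NDUFS8, NDUFV1, SDHB, UQCRC2, COX5A, COX5B, COX7C, ATP5F1B and ATP5IF1. Without SP replicate 2 this count was 20 of 68 members, against 6.59% of all genes. In 25 members (38.5%) SP was higher in all 4 same-numbered pairs, against 14.9% of all tested genes. In 3 members (ATP5MC1, ATP5PB and NDUFA3, 4.62%) it was lower in all 4, against 15.1% of all tested genes.

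**Figure D2:**
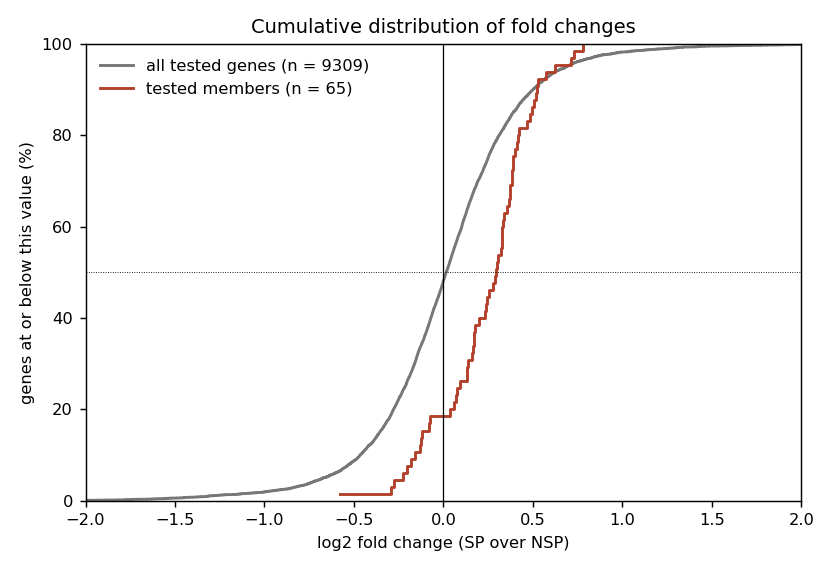
Cumulative distribution of the fitted log2 fold change of SP over NSP (x axis, shown from -2 to 2) for the 65 tested members and all 9309 tested genes; the y axis gives the percentage of genes at or below each value, and the dotted line marks 50%. The curve of the members lies to the right of the other at the median (0.29 against 0.01), while its upper end at 0.78 lies well inside the range of all genes.

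The lean of the members was uneven over the libraries. Median log2 ratios of SP over NSP for the replicate numbers 1, 2, 3 and 4 were 0.15, 0.11, 0.27 and 0.51 over the members, against 0.00 to 0.01 over all tested genes. Over the tested protein-coding genes alone they were 0.02, 0.01, 0.10 and 0.02. SP replicate 4 was the highest of the 8 libraries in 39 of 65 members (60.0%), while it was the highest in 15.1% of all tested genes. Without SP replicate 4 the members' median was 0.18 and 43 of 68 were above 0 (63.2%, against 50.4% of all genes). The mitochondrially encoded subunits were also highest in SP replicate 4, at a summed 70816 CPM against 29992 to 53400 in the other SP libraries. Among the NSP libraries replicate 4 was highest too, at 35237 CPM against 13979 to 21957. Their median same-numbered log2 ratios were 1.76, 1.37, 1.42 and 1.18, lowest at number 4, where the members' median was highest. The part of SP replicate 4 in the members' values beyond these figures was not tested.

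Summed over all 91 members, the SP libraries held 3306, 3016, 3341 and 3908 CPM and the NSP libraries 2926, 2867, 2781 and 2887 CPM, for replicates 1 to 4. The groups did not overlap, and SP replicate 4 stood highest. The ratio of the group means was 1.18, and the same-numbered ratios were 1.13, 1.05, 1.20 and 1.35.

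**Figure D3:**
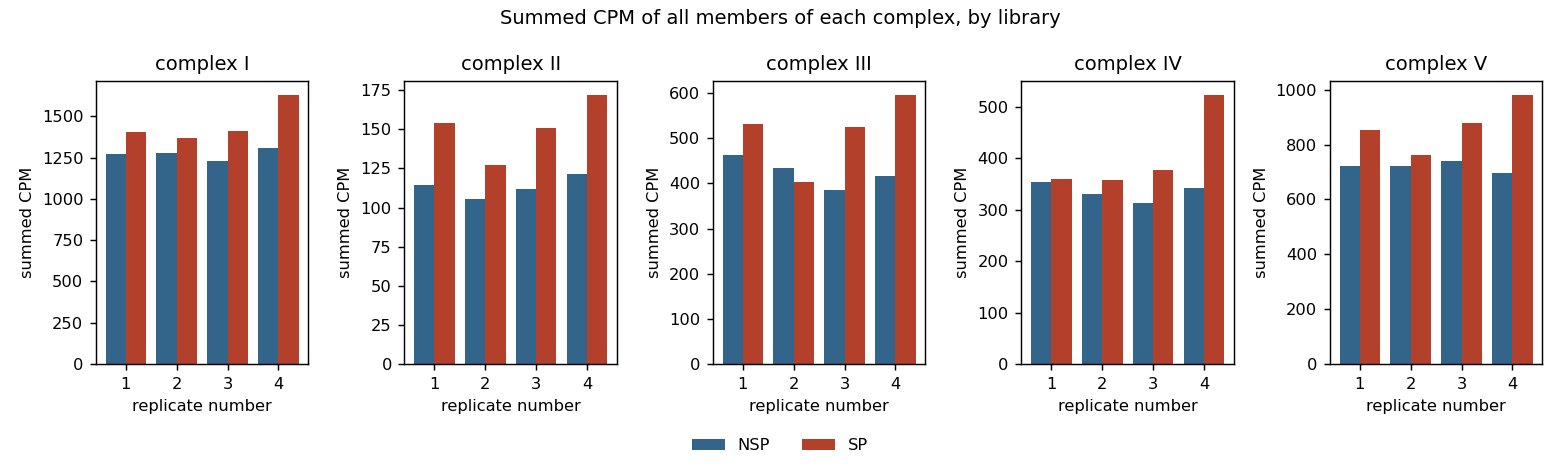
Summed CPM of all members of each complex (y axis, 1 scale per panel, starting at 0) in the 4 NSP and 4 SP libraries by replicate number (x axis). SP stood above NSP of the same number in every panel and pair except complex III at number 2 (402.8 CPM in SP, a ratio of 0.929), and the complex IV bar of SP replicate 4 (524.1 CPM) stands apart from the other 3 SP libraries (357.2 to 377.4 CPM).

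Complex I, the NADH dehydrogenase, had 27 tested members, of which 21 were above 0 (median 0.33). Its 6 tested catalytic core subunits had a median of 0.36 and its 21 other members 0.32. Without SP replicate 1 the complex I median was 0.40, and without SP replicate 4 it was 0.24.

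NDUFA1, a membrane arm subunit encoded on the X chromosome (ENSG00000125356.6, GRCh37 chrX:119005795-119010625), had 61.3, 40.2, 35.7 and 72.9 CPM in SP replicates 1 to 4 and 35.6, 36.1, 33.2 and 20.1 CPM in the NSP replicates. SP replicates 1 and 4 were high and NSP replicate 4 low, and the groups overlapped, since SP replicate 3 lay within the NSP range. Its log2 fold change was 0.73 (SE 0.25, adjusted p = 0.133) without the block and 0.70 (SE 0.19, adjusted p = 0.00474) with the replicate block. The same-numbered log2 ratios were 0.76, 0.15, 0.10 and 1.81. They spread widely, and the SE with the block, partly shared over genes, does not measure that spread alone. Without the filter on low counts NDUFA1 was called (adjusted p = 0.0488).

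NDUFB9, an accessory subunit (ENSG00000147684.3), had 69.9, 59.0, 54.1 and 87.6 CPM in SP and 53.7, 45.4, 40.2 and 56.0 CPM in NSP. SP was higher within each number by a like amount (log2 ratios 0.37, 0.37, 0.42 and 0.64), although the groups overlapped. The log2 fold change was 0.47 (SE 0.19, adjusted p = 0.229), and with the replicate block 0.46 (SE 0.16, adjusted p = 0.0423). Its exons overlap those of 2 opposite-strand genes: TATDN1, over 187 bp, had 1764 counts against 741 for NDUFB9, and MTSS1, over 2001 bp, had 132.

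NDUFV1, which carries the FMN site where NADH is oxidised, had 98.0, 97.2, 113.2 and 95.0 CPM in SP and 73.9, 78.0, 80.4 and 76.1 CPM in NSP. The groups were far apart relative to their own spread (100.8 ± 8.32 and 77.1 ± 2.74 CPM, SD, n = 4), but the log2 fold change of 0.39 had an adjusted p of 0.178, and 0.0672 with the replicate block. NDUFS8, an iron-sulfur subunit, had 133.3 to 187.3 CPM in SP and 109.7 to 131.4 CPM in NSP, with a log2 fold change of 0.34 (adjusted p = 0.282). NDUFB7, a membrane arm subunit, had 74.9 to 94.2 CPM in SP and 60.0 to 67.6 CPM in NSP (0.36, adjusted p = 0.244). None of these 3 was called in either fit.

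NDUFA3 had the most counts per kb of transcript of the 5 complexes' members (246.9 CPM per kb) and went the other way. It had 244.3, 215.8, 178.1 and 222.3 CPM in SP and 257.5, 252.4, 222.6 and 273.8 CPM in NSP, lower in SP in all 4 pairs, with overlapping groups. The log2 fold change was -0.23 (SE 0.15, adjusted p = 0.482). The exons of NDUFA3 lie across those of TFPT, which had 1081 counts against 3032. NDUFA4 had the highest fitted value of complex I, 0.78, on 76 counts in all (7.66 ± 1.33 CPM in SP and 4.53 ± 2.46 CPM in NSP, adjusted p = 0.339). By symbol it falls here, although its protein is known as a subunit of complex IV. The lowest value, -0.27, belonged to NDUFAB1, the mitochondrial acyl carrier protein (adjusted p = 0.724), and it was 0.01 without NSP replicate 1.

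**Figure D4:**
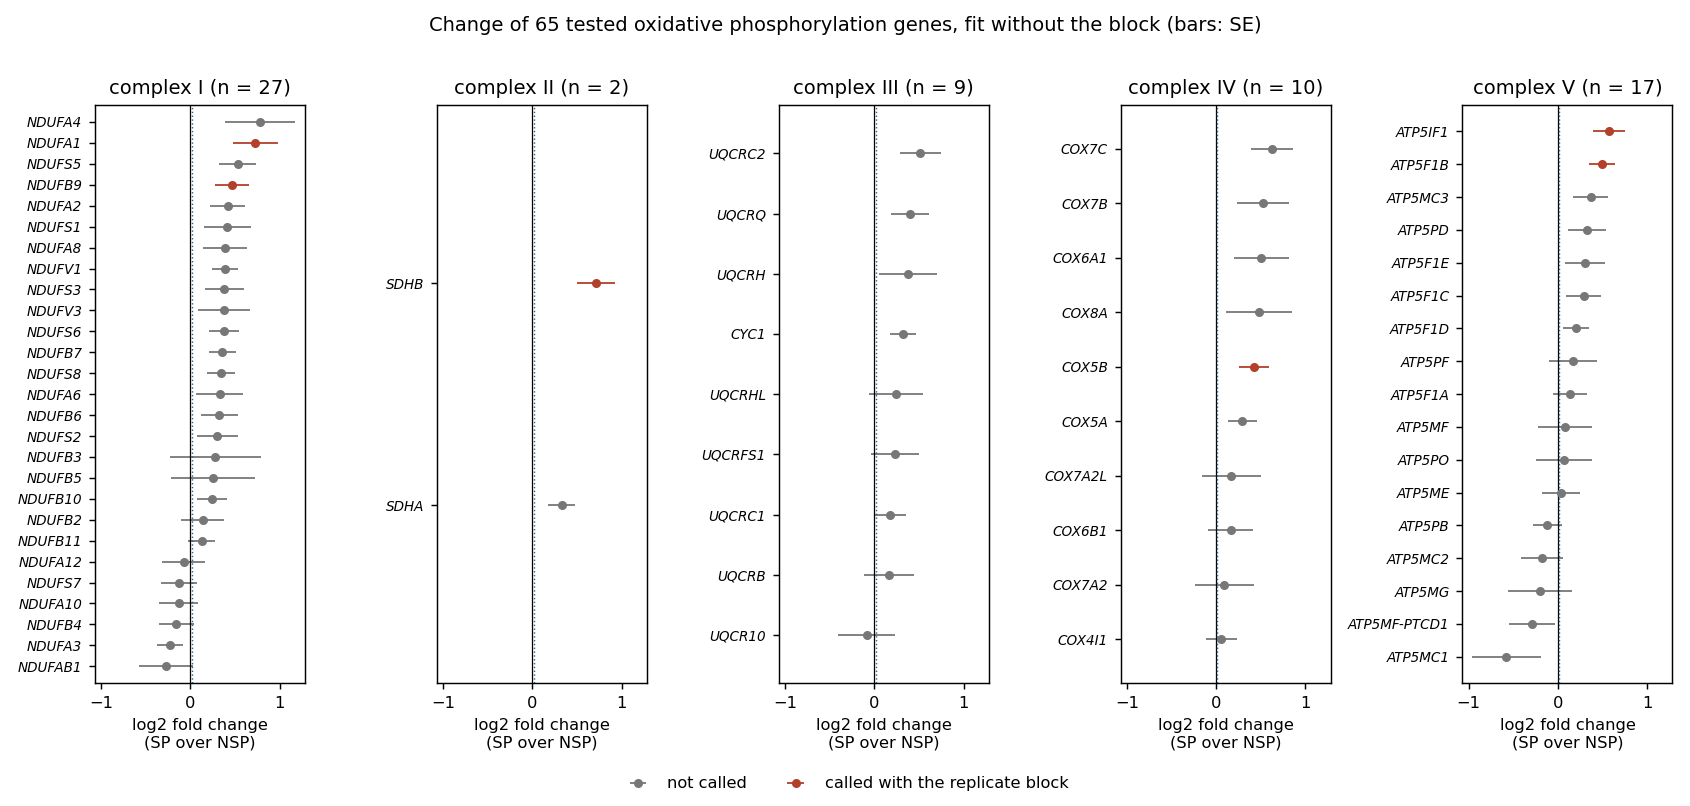
Fitted log2 fold change of SP over NSP (x axis) with its SE for the 65 tested members, in 1 panel per complex, from the fit without the block; the dotted line is the median of all tested genes and red marks the 6 members called with the replicate block. All 10 tested members of complex IV lie above 0, and the 5 lowest of complex V lie below it.

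Complex II, succinate dehydrogenase, ties the citric acid cycle to the chain, and all of its subunits are nuclear. SDHB, the iron-sulfur subunit (ENSG00000117118.5, GRCh37 chr1:17345159-17380527), had 28.8, 30.2, 33.0 and 42.0 CPM in SP and 22.3, 15.3, 22.3 and 22.1 CPM in NSP. The groups did not overlap, and NSP replicate 2 was low. The log2 fold change was 0.71 (SE 0.22, adjusted p = 0.0860), and with the replicate block 0.70 (SE 0.21, adjusted p = 0.0118). SDHA, the flavoprotein that oxidises succinate, had 120.3, 93.8, 113.2 and 128.8 CPM in SP and 91.5, 86.4, 87.4 and 97.5 CPM in NSP. It was higher in all 4 pairs, with SP replicate 2 inside the NSP range (0.33, SE 0.15, adjusted p = 0.288). The membrane anchors SDHC and SDHD had 28 and 8 counts and were not tested.

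Complex III, which passes electrons from ubiquinol to cytochrome c, had 9 tested members, 8 of them above 0 (median 0.24, and 0.12 without SP replicate 4). CYC1, the cytochrome c1 subunit, had 231.3, 172.2, 199.8 and 224.5 CPM in SP and 184.6, 158.5, 151.2 and 165.9 CPM in NSP. The groups overlapped at SP replicate 2, and the log2 fold change was 0.33 (SE 0.15, adjusted p = 0.280, and 0.102 with the block). UQCRC2, a core protein, had 46.1, 26.1, 27.1 and 36.8 CPM in SP and 26.1, 23.2, 25.5 and 19.4 CPM in NSP, so that SP replicate 2 and NSP replicate 1 differed by less than 0.1 CPM. Its log2 fold change was 0.52 (SE 0.23, adjusted p = 0.259). UQCR10 had the lowest value, -0.08 (SE 0.32, adjusted p = 0.930).

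Complex IV, cytochrome c oxidase, had 10 tested members and all had a log2 fold change above 0 (median 0.36, and 0.23 without SP replicate 4). COX5B, the zinc-binding subunit (ENSG00000135940.2, GRCh37 chr2:98262525-98264846), had 82.1, 91.2, 83.4 and 113.4 CPM in SP and 71.3, 70.6, 56.8 and 77.4 CPM in NSP. The groups did not overlap, and SP replicate 4 was the highest. The log2 fold change was 0.42 (SE 0.17, adjusted p = 0.210), and with the replicate block 0.42 (SE 0.15, adjusted p = 0.0478). COX7C had 15.9, 20.1, 17.9 and 21.4 CPM in SP and 11.2, 12.4, 12.8 and 12.5 CPM in NSP, without overlap (0.62, SE 0.23, adjusted p = 0.178, and 0.0953 with the block). COX5A had 59.6 to 71.4 CPM in SP and 42.2 to 56.9 CPM in NSP, also without overlap (0.29, adjusted p = 0.410).

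Several complex IV subunits come in a ubiquitous and a tissue-restricted form, and the counts lay on the ubiquitous form in each of 5 pairs. COX4I1 had 1532 counts and COX4I2, known from lung, had 0. COX6A1 had 151 against 0 for COX6A2, the heart and muscle form, and COX8A had 119 against 0 for COX8C. Per length, COX6B1 had 57.4 CPM per kb against 0.439 for the testis form COX6B2, and COX7A2 had 22.9 CPM per kb against 5.82 for COX7A1, the heart and muscle form. In the test, COX4I1 (0.06), COX7A2 (0.09) and COX6B1 (0.16) were near 0, with adjusted p of 0.913, 0.925 and 0.814, and COX6A1 (0.51) and COX8A (0.48) had adjusted p of 0.451 and 0.563. The signs of COX4I1, COX6B1 and COX7A2 turned without SP replicate 4, to -0.12, -0.09 and -0.11.

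Complex V, the ATP synthase, had 17 tested members with a median of 0.13, which was -0.04 without SP replicate 4 and 0.03 without NSP replicate 4. The 5 subunits of the catalytic F1 head were all above 0 (median 0.29), and 7 of the 12 other members were (median 0.05). The difference between these parts was not tested.

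ATP5F1B, the catalytic beta subunit (ENSG00000110955.4, GRCh37 chr12:57031959-57039768), had the most counts of all members, 3183 over the 8 libraries. It had 311.3, 250.7, 268.0 and 332.7 CPM in SP and 219.7, 203.0, 185.0 and 218.5 CPM in NSP. The groups did not overlap, and SP replicate 2 was the lowest of its group. The log2 fold change was 0.49 (SE 0.15, adjusted p = 0.0777), and with the replicate block 0.49 (SE 0.13, adjusted p = 0.00443). No exon of the other strand lies across its exons.

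ATP5IF1, the inhibitor that binds the F1 head and blocks ATP hydrolysis (ENSG00000130770.13, GRCh37 chr1:28562620-28573417), had 62.7, 69.7, 85.0 and 65.5 CPM in SP and 40.4, 56.8, 47.8 and 45.6 CPM in NSP. The groups did not overlap, and SP replicate 3, not 4, was the highest library. Its log2 fold change was 0.57 (SE 0.17, adjusted p = 0.0897), and with the replicate block 0.57 (SE 0.16, adjusted p = 0.00771). Enzyme subunit and inhibitor thus had a like fold change. ATP5MC1, a copy of the membrane ring subunit c, had 4.32, 4.69, 5.96 and 12.5 CPM in SP and 9.04, 5.93, 13.4 and 13.1 CPM in NSP. It was lower in SP in all 4 pairs, on 110 counts, with a log2 fold change of -0.58 (SE 0.39, adjusted p = 0.499). ATP5MC2 and ATP5MC3 encode the same mature subunit c. ATP5MC3 had 1018 counts and 0.37 (adjusted p = 0.372), and ATP5MC2 192 counts and -0.18 (adjusted p = 0.778).

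**Figure D5:**
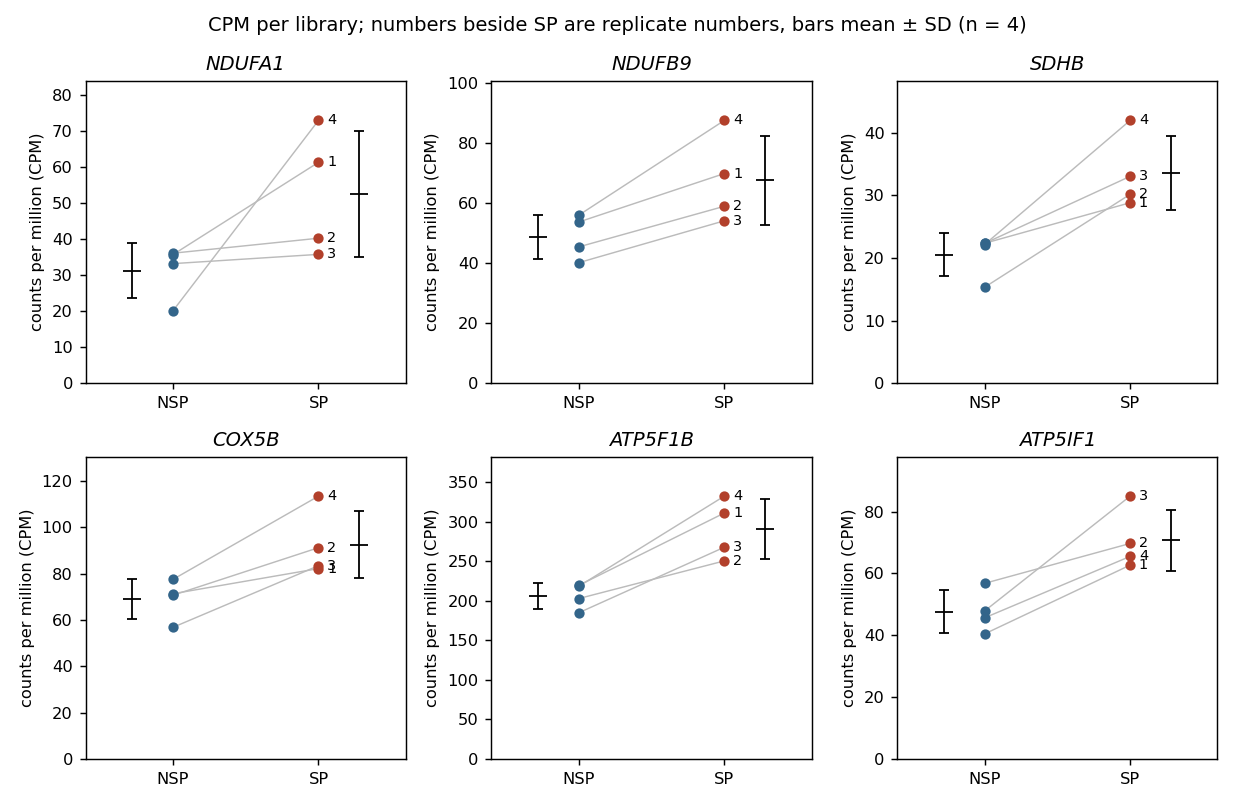
CPM (y axis, starting at 0) of the 6 members called with the replicate block in the NSP and SP libraries; lines join libraries of the same replicate number, written beside the SP points, and the black marks are the mean ± SD of 4 libraries. Every line goes up from NSP to SP, with the steepest one at number 4 in NDUFA1 (20.1 to 72.9 CPM).

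The overlap with opposite-strand exons was followed into the comparison. The 22 tested members with such an overlap had a median log2 fold change of 0.17 and the 43 without it 0.33. Over all tested protein-coding genes the corresponding medians were 0.02 (3570 genes) and 0.07 (3799 genes). The medians of the 43 members in the same-numbered pairs were 0.15, 0.10, 0.30 and 0.62, and those of the 3799 genes 0.01, 0.02, 0.19 and 0.04. When all genes with an overlap were left out and the scaling was recomputed, the members' median was 0.26 against 0.00 over all genes, and 36 of 43 (83.7%) were above 0 against 50.4%. Of the 43, 5 did not overlap between the groups under this scaling, against 3.88% of all genes. Under the main scaling 9 of the 43 did not overlap, against 4.78% of all tested genes. The 29 members overlap 35 opposite-strand genes, of which 26 were tested. None of the 26 was called without the block, and 1 was called with it, CELF1, which lies across NDUFS3. TATDN1, across NDUFB9, had a log2 fold change of 0.17 (adjusted p = 0.714).

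Genes that work with the complexes were counted in the same way. Of 29 tested assembly factors, edgeR called none without the block, and 2 were higher and 4 lower by the unadjusted p (under 0.05). DESeq2 and limma voom each called NDUFAF7 lower (adjusted p = 0.0407 and 0.0483). With the replicate block edgeR called 4 of the 29 lower, beside 7.00% of all tested genes: NDUFAF7 (-0.65, adjusted p = 0.00283), NDUFAF8 (-0.77, adjusted p = 0.0353), UQCC2 (-0.43, adjusted p = 0.0124) and COA3 (-0.83, adjusted p = 0.0172). NDUFAF7 and NDUFAF8 serve complex I, UQCC2 complex III and COA3 complex IV. No assembly factor was called higher by any tool, beside 5.89% of all tested genes with the block. NDUFAF7, UQCC2 and COA3 have exons across exons of the other strand, as 54.2% of all tested genes do, and NDUFAF8 does not. The median of the 29 was 0.13. All 13 citric acid cycle genes were tested, with a median of 0.32 and 10 above 0. No tool called any without the block (2 were higher and 1 lower by edgeR's unadjusted p, under 0.05), and DLD, the shared dehydrogenase subunit, was called lower with it (-0.58, adjusted p = 0.0172). DLD also has exons across exons of the other strand. The 12 tested genes for ubiquinone synthesis, electron carriers and ADP carriers held no call by edgeR with or without the block, DESeq2 or limma voom, and 1 was higher at an unadjusted p under 0.05 (median 0.16), with SLC25A5, an ADP/ATP carrier, at 0.28 and CYCS, cytochrome c, at -0.06.

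The regulators of mitochondrial biogenesis were thinly counted, with 7 of 14 tested and a median of -0.23. GABPA (-0.23), YY1 (-0.03) and the nuclear receptor ESRRA (-0.25) were not called, and POLG, the mitochondrial DNA polymerase, was called lower with the block alone (-0.38, adjusted p = 0.0462). All of these genes have exons across exons of the other strand, and GABPA lies across the member ATP5PF, over 692 bp. The coactivator PPARGC1A, NRF1 and TFAM had 78, 62 and 47 counts and were not tested. PPARGC1A had 8.82 ± 2.71 CPM in SP and 3.61 ± 1.76 CPM in NSP. Among members with and without the NRF1 letters in the promoter entry the median log2 fold changes were 0.31 (12 tested) and 0.29 (40 tested). With and without the ETS letters they were 0.38 (16) and 0.24 (36), and with and without the YY1 letters 0.12 (8) and 0.31 (44). For the CRE letters they were 0.03 (5) and 0.30 (47), and for the SP1 letters 0.30 (33) and 0.16 (19). For the CCAAT letters they were 0.33 (19) and 0.24 (33). These differences were not tested.

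The 13 subunits encoded by mitochondrial DNA had larger fitted fold changes than any nuclear member. Of these, 12 were called higher in SP (beside 1.63% of all tested genes) and all 13 with the replicate block (beside 5.89%). Their median log2 fold change was 1.42. DESeq2 called 10 of them and limma voom 12, and the groups did not overlap in 5. Their summed level was 29992 to 70816 CPM in SP and 13979 to 35237 CPM in NSP, with SP replicates 2 and 3 below NSP replicate 4, and MT-ND6 held most of it. No nuclear member reached the smallest fitted value of this list, 0.88 for MT-ND6 (adjusted p = 0.121). Leaving out the mitochondrially encoded genes before scaling did not bring any call among the members.

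Marker genes were read from the same counts. ABCB1 and FOXC1 were called higher in SP (2.96 and 3.33). The study named both as higher in SP from these same libraries, so their values are not an independent check of the labels. ABCG2, a transporter, had 14 counts and was not tested. The keratins KRT8, KRT18 and KRT7 were counted in all libraries, UPK3A had 0 counts and EPCAM 3. KRT7 was called lower in SP (-1.35). VIM, of the same list, was not called by edgeR without the block (-0.76, adjusted p = 0.0784). It was called lower with the block (-0.75, adjusted p = 3.39e-06) and by DESeq2 (-0.78, adjusted p = 0.0458). UPK2 was above 0 (0.22, adjusted p = 0.820). The 11 urothelial and carcinoma markers summed to 3806 to 5190 CPM in SP and 5218 to 6904 CPM in NSP. Most of this was KRT8 (means of 3298 and 4022 CPM), which was not called (-0.29, adjusted p = 0.447). Leukocyte and endothelial markers were at or near 0 (PTPRC and CD3E at 0, and CDH5, VWF and KDR at 1 to 2 counts), apart from CD14 with 629 counts and CD68 with 107. CD14 was not called without the block (0.96, adjusted p = 0.135) and was called higher with it (1.01, adjusted p = 2.77e-06).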

How the data were processed

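RNA-seq of 4 SP and 4 NSP samples of J82 cells was single-end, 50 bp. The authors aligned the reads to hg19 with STAR, assigned them to gencode version 19 genes with featureCounts and deposited the raw counts per gene and library, without normalization. The strand setting and the handling of multi-mapped reads are not given in the sources used here. The study's other data types and its knockout libraries were not analysed here.

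Symbols and positions came from the GENCODE annotation mapped to GRCh37, joined on the unversioned gene identifier (55538 genes matched, 96.1%, and the unmatched held 4.06% of counts). Group was tested on the deposited counts by the quasi-likelihood F test of edgeR 4.0.16 (R 4.3.3) after TMM scaling and filterByExpr, which needed 10 counts in enough libraries and 15 in total. CPM used the TMM library sizes, and the SE is the log2 fold change divided by the square root of F. Ratios within a replicate number used log2(CPM + 1). DESeq2 1.42.0, limma 3.58.1, other scalings and filters and leaving out each library were alternatives. The edgeR fit without the block, DESeq2 and limma were tested on simulated data, with changes larger than the members' median. The fit with the replicate block and changes as small as that median were not simulated.

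Deviations from the group means correlated at 0.38, 0.203, 0.322 and 0.321 between an SP and an NSP library of one number and at -0.276 to 0.124 between different numbers. Libraries of one number were therefore treated as pairs, although the labels do not say what they share. Libraries of one group differed by more than sampling noise (chi-square per degree of freedom 5.7 to 13.2), so each was counted as 1 sample.

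The members and the gene lists were chosen with earlier results of these data known. Named members are those called with or without the block, per complex the one with the most counts per kb and the highest and lowest fitted value, 5 isoform pairs of complex IV and called genes of the lists; others were named after their values were seen. Levels between genes were compared per kb of the canonical transcript for 90 members. Promoter sequences came from RefSeq on GRCh38.p14.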

Additional observations from a re-analysis of the deposited data

Results flagged for a closer look

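Library values far from the other 3 of their group were looked for in 50 groups of 4 (named members and summed complexes), as a gap to the nearest of the others, over the whole range, above Dixon's critical value. Chance alone marks about 1 in 20 such groups, or 2.5 of 50, and 5 were marked. SP replicate 4 was marked 3 times: COX4I1 had 160.5 CPM against 104.6 to 111.7 CPM in the other SP libraries (ratio 0.873), the summed complex I genes 1632 against 1367 to 1409 CPM (0.839) and the summed complex IV genes 524.1 against 357.2 to 377.4 CPM (0.879). SDHB was low in NSP replicate 2, at 15.3 CPM against 22.1 to 22.3 CPM (0.969). COX8A was low in NSP replicate 4, at 5.53 CPM against 7.98 to 8.40 CPM (0.855). COX8A lies close to what few reads can resolve, with 119 counts over all libraries.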

How the results depend on the processing

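With the replicate block 6 members were called higher, and 548 of all genes higher and 652 lower, against 152 and 189 without it. Chosen after seeing the data, that blocked fit without both libraries numbered 1, 2, 3 or 4 called 4, 3, 7 and 1 members, and 3.64%, 3.81%, 6.45% and 3.81% of all genes higher. DESeq2 and the fit with no filter on low counts called 1 member each (ATP5F1B and NDUFA1). Over the 26359 genes with a DESeq2 p-value, 153 were called higher and 246 lower, and the fit with no filter called 303 genes higher and 381 lower. Without genes with an exon across an opposite-strand exon, 59 genes were called higher and 62 lower, of fewer genes tested (4254), and 5 members had every SP library above every NSP library (3.88% of all genes). Under the main scaling this held for 9 members without such an exon. Leaving out 1 library gave 69 to 164 genes higher and 89 to 181 lower (69 and 89 without NSP replicate 2, 91 and 110 without SP replicate 2, and 93 higher without NSP replicate 1), a complex I median of 0.24 to 0.40, 9 to 20 members wholly above (20 without SP replicate 2, with 6.59% of all genes) and 0 to 2 wholly below (2 without SP replicate 4). The medians of complexes III and V without SP replicate 4 were 0.12 and -0.04. No member was called lower under any alternative, and none higher when 1 library was left out of the fit without the block. The block changed no other call among the members. With a median of 343 counts per tested member, the number of counts limits what a change of this size can show, and the strand of the reads behind each count is unknown.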
